A study of Mus musculus with 28 samples.

Results

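The albumin gene family of the mouse was described across 9 kinds of cell. They are the cells of chemical routes from fibroblasts to hepatocyte-like cells, and reference cells. Its members were taken as the rows of the deposited tables named Alb, Afp, Afm and Gc, which gave 4 of the 31673 genes measured. All 4 were present in the tables, and all 4 passed the filter on low counts in the fit of 20 samples. Expression levels are in TPM (a share of all transcripts, scaled for transcript length so that genes can be compared), and tests were made on the read counts.

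The family encodes carrier proteins that are secreted into the blood, mainly by the liver. Alb (serum albumin) is the most abundant plasma protein of the adult and carries fatty acids, hormones and drugs. Afp (alpha-fetoprotein) takes that place in the fetus: it is made by the visceral endoderm of the yolk sac and by the fetal liver, and is shut down in the liver after birth. Afm (afamin) is a liver-made carrier of vitamin E and of acylated Wnt proteins, and Gc (vitamin D binding protein) carries vitamin D metabolites and captures free actin. The genes arose by duplication and lie together on 1 chromosome, where the hepatocyte factors HNF4, C/EBP and FOXA are known to act on their promoters and enhancers.

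The study asked whether fibroblasts can be brought into the endoderm lineage by chemicals. Fibroblasts of E13.5 embryos at passage 2 (MEF, 3 libraries) and neonatal dermal fibroblasts at passage 2 (MNF, 2 libraries) were the starting cells, and the endoderm progenitors induced from them are MEF_ciEPC (10 libraries, at passage 1 to passage 22) and MNF_ciEPC (2 libraries, at passages 2 and 3). Hepatocyte-like cells were made from such progenitors of passages 3 to 10, giving MEF_ciHep (3 libraries) and MNF_ciHep (2 libraries). The references were OG2 embryonic stem cells at passage 5 (ESC, 2 libraries), endoderm progenitors made from stem cells of passages 10 to 15 (ESC_EPC, 2 libraries) and primary hepatocytes of adult liver at passage 0 (pHep, 2 libraries). All groups carried an Oct4-GFP transgenic allele. Per the strain labels, the MNF, MNF_ciEPC, MNF_ciHep and pHep samples came from CBA/CaJ X C57BL/6J mice, and the MEF, MEF_ciEPC, MEF_ciHep, ESC and ESC_EPC samples from crosses of such mice to 129Sv/Jae females. Differences between the MEF and MNF routes, and between MEF_ciHep and pHep, therefore cannot be told apart from strain. For MNF_ciEPC the source name gives MEF while titles and cell type give MNF, and the latter were followed.

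Total counts ran from 1439670 to 6133147 per library. The 10 MEF_ciEPC libraries belong to 2 numbered series, which were read as 2 culture lines and counted as 2 samples. For the other groups nothing in the labels says that libraries came from separate cultures or animals, so p-values measure the spread between these samples. The library of MEF_ciEPC series 2 at passage 22 stood apart: its summed TPM of 8 pluripotency markers was 13846, against 310.1 to 740.0 in the other 9. Results on the family members in MEF_ciEPC were therefore also computed without it. The MEF_ciEPC values and tests of all other genes and gene lists include that library and were not computed without it. The read or fragment length implied by the tables was longest in ESC_EPC (186.6 to 195.7 bases), shorter in MEF, MNF, ESC and MNF_ciEPC (74.3 to 74.5 bases) and shortest in the remaining 4 groups (49.5 to 50.6 bases). Differences between groups of unlike length cannot be told apart from it. This holds for MEF_ciEPC against MEF, MNF_ciHep against MNF_ciEPC or MNF, MEF_ciEPC against MNF_ciEPC, and every comparison with ESC_EPC. The test between the 2 origins uses MNF_ciEPC and crosses these lengths too. The part of read length in the results was not tested.

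The labels were checked against markers. The summed TPM of 8 fibroblast markers was 18217 to 30588 in the MEF and MNF libraries and that of the pluripotency markers 9289 to 9442 in ESC. Foxa2, a forkhead factor of endoderm, averaged 125.6, 131.0 and 68.1 TPM in MEF_ciEPC, MNF_ciEPC and ESC_EPC, and no more than 1.16 TPM in MEF, MNF and ESC. Its relative Foxa1 averaged 0.92, 0.48 and 41.8 TPM in the same progenitor groups. Their summed TPM of 14 visceral endoderm markers was 957.6 to 3325, 3610 to 4086.5 and 486.2 to 666.8. That of 8 parietal endoderm markers was 184.9 (the library that stood apart) to 27123, 11787 to 15286 and 516.6 to 547.2. It was 3939 to 4670 in MEF and 8862 to 8891 in MNF. The progenitor groups were therefore not alike in these markers. Of 10 hepatocyte markers, all 10 had counts in both pHep libraries, 8 in every MEF_ciHep library and 5 in both MNF_ciHep libraries.

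In the GENCODE M21 annotation (GRCm38, the mm10 build) all 4 members are protein-coding genes of chromosome 5. Gc spans chr5:89417522-89457898 on the minus strand, and its end lies 1003.0 kb from Alb. Alb (chr5:90460897-90476602), Afp (chr5:90490737-90508907) and Afm (chr5:90518932-90553543) follow each other on the plus strand, with gaps of 14.1 kb and 10.0 kb. The 3 close neighbours therefore share a direction of transcription that Gc does not. An antisense gene, Gm43449, overlaps Afp on the other strand at chr5:90499088-90515931, and since strand-specific counting is not stated, its reads cannot be told apart from those of Afp. It was listed at a mean of 10.6 TPM in MEF_ciHep, 5.02 TPM in pHep and 0 TPM in the other 7 groups.

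The bases just upstream of each start are shown because these promoters are the textbook site of liver control of the family, and the members moved together in part. They are RefSeq promoters of build GRCm38.p6, printed 5′ to 3′ on the strand of the gene and ending just before its RefSeq start. For Afm the last 17 bases of the window were left out, since GENCODE places them inside the gene. For Alb and Afp the RefSeq start lies upstream of the GENCODE start (chr5:90460897 and chr5:90490737). The bases between these starts are not in the windows. Capitals mark the letters of the CCAAT box and those of the TATA box, searched as TATAAA, on either strand. A CCAAT box of the other strand reads as ATTGG here. The intervals are chr5:89457899-89458148 (minus strand) for Gc, chr5:90460620-90460869 (plus) for Alb, chr5:90490464-90490713 (plus) for Afp and chr5:90518699-90518931 (plus) for Afm.
Gc: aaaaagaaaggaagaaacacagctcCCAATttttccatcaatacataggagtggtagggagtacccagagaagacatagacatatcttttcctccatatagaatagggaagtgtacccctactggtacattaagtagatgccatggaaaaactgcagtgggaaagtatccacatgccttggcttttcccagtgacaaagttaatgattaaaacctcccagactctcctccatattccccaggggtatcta
Alb: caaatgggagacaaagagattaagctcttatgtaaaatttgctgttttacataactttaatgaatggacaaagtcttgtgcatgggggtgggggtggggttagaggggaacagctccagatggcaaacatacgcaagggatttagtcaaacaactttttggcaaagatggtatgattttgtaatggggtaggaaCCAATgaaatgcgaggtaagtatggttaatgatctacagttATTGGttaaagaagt
Afp: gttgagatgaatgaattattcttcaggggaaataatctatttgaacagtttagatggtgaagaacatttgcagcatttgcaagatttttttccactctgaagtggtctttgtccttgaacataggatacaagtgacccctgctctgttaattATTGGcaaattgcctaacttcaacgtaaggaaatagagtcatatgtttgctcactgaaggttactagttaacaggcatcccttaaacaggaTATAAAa
Afm: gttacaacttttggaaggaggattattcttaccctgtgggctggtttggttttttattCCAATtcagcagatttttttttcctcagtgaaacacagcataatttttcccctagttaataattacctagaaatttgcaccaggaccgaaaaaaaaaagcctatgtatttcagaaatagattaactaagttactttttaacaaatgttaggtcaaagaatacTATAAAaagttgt

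CCAAT was present on either strand in all 4 windows and in 33.85% of 32851 mouse promoter windows of 250 bases. Alb held it at 2 places, 56 to 52 bases before the start and, on the other strand, 15 to 11 bases before it. Afp held it on the other strand, 98 to 94 bases before the start, and Afm and Gc farther out, from 192 and 225 bases before it. TATAAA was present in Afp, 7 to 2 bases before the RefSeq start, and in Afm, 30 to 25 bases before it, and in 12.4% of all windows. For Alb and Afp the distances would be longer from the GENCODE starts. The bases between the RefSeq and GENCODE starts were not searched, so the lack of TATAAA in Alb holds for the window only. The motifs do not overlap each other in these windows. They were chosen with the members known, and a match of letters is a description, not a binding site.

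Gc had counts in 6 groups, as Afp did. In primary hepatocytes it stood at 1335 and 2603 TPM. In MEF_ciHep it stood at 38.2, 95.1 and 70.7 TPM, and in MNF_ciHep at 12.7 and 17.6 TPM. These 3 groups did not overlap. The share of all genes without overlap between groups is not given, so non-overlap here and below is a description only. The MNF_ciEPC libraries had 4.90 and 2.44 TPM. Among the 10 MEF_ciEPC libraries the lowest was 0 TPM, the median 0.955 TPM and the highest 6.43 TPM, from 31 counts in all. A single MEF library had 1.07 TPM (1 count), and the MNF, ESC and ESC_EPC libraries, like the other MEF libraries, were listed at 0. The annotated transcripts of Gc are 1801 and 444 bases long, and the average transcript length that entered the TPM ran from 1033 to 1801 bases over the libraries with at least 10 counts, so its TPM depends on how reads were shared between transcripts. The length of Alb was 2034 bases in 12 of the 13 libraries with a count and 911.6 bases in 1, MEF_ciEPC series 1 at passage 22.

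Alb was near or at 0 everywhere except in 2 groups. Primary hepatocytes held 14800 and 11138 TPM, ranks 4 and 3 among all genes of those libraries. The MEF_ciHep libraries held 1035, 1817 and 2409 TPM, ranks 89, 42 and 31. The MNF_ciHep libraries held 0 and 0.560 TPM, the latter from a single count. In MEF_ciEPC the lowest value was 0 TPM, the median 0.425 TPM and the highest 8.45 TPM, from 19 counts in 6 of the 10 libraries. A single MEF library had 0.810 TPM (4 counts), and all libraries of MNF, MNF_ciEPC, ESC and ESC_EPC were at 0. In the deepest of these, an ESC library, a count of 0 allows Alb a share of up to 4.899e-05% of counts (3 counts, counting error only).

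Afp was highest in MEF_ciHep and not in the adult hepatocytes. The MEF_ciHep libraries held 5803, 1483 and 6255 TPM, ranks 13, 60 and 13 among all genes. Primary hepatocytes held 318.8 and 436.8 TPM (ranks 422 and 302), below the lowest of the MEF_ciHep libraries. Afp was thus still present in these adult cells, though it is shut down in the liver after birth, and why was not tested. The MNF_ciEPC progenitors held 26.0 and 18.1 TPM, and the MNF_ciHep libraries 1.5 and 7.18 TPM, all below those progenitors. In MEF_ciEPC the lowest value was 0 TPM, the median 1.60 TPM and the highest 6.46 TPM, with counts in 9 of 10 libraries. A MEF library had 0.200 TPM (1 count), and the MNF, ESC and ESC_EPC libraries were at 0.

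Afm was detected in 2 groups only. The MEF_ciHep libraries held 44.6, 74.2 and 66.3 TPM and the primary hepatocytes 11.6 and 13.9 TPM, without overlap. All 23 libraries of the other 7 groups, MNF_ciHep and every progenitor included, had 0 counts.

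**Figure D1:**
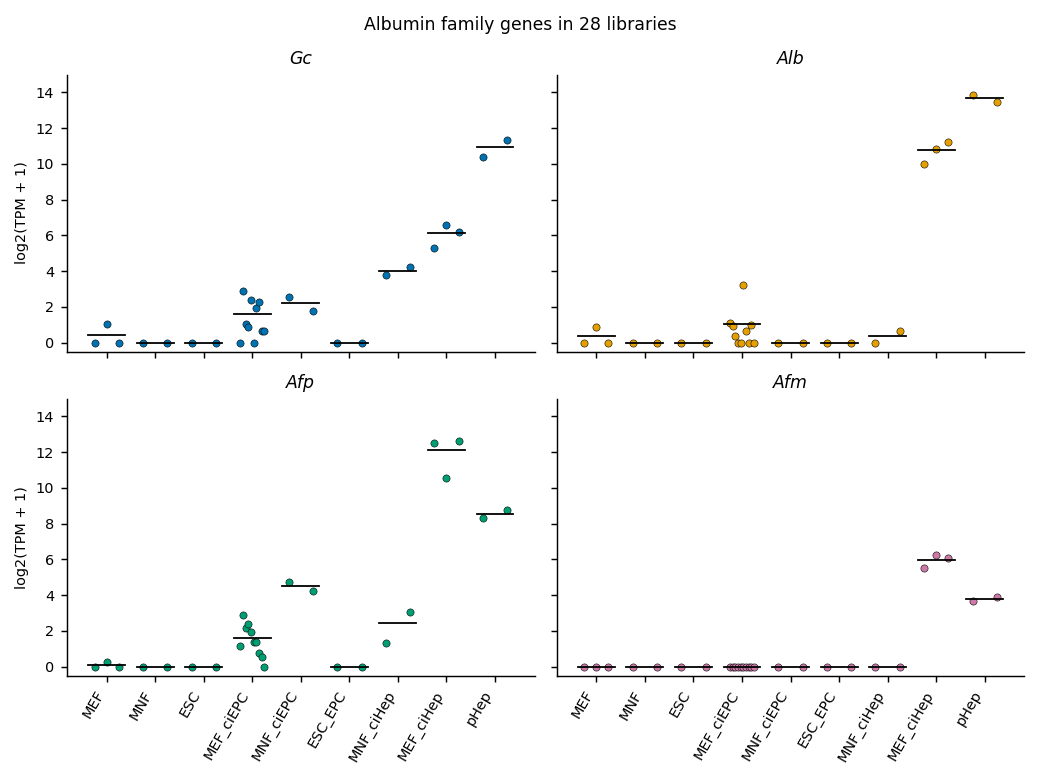
Level of Gc, Alb, Afp and Afm in each of the 28 libraries, as log2(TPM + 1) on the vertical axis, by group on the horizontal axis; points are libraries and lines mark the group mean of TPM (for MEF_ciEPC the mean of the 2 series). Gc steps up from the ciEPC groups to MNF_ciHep, MEF_ciHep and pHep, Alb and Afm are near or at 0 outside MEF_ciHep and pHep, and Afp and Afm are higher in MEF_ciHep than in pHep.

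The members therefore differed in the order of their levels over the groups. For Gc the order by mean TPM was pHep (1969 ± 896, SD, n = 2), MEF_ciHep (68.0 ± 28.5, n = 3), MNF_ciHep (15.15 ± 3.51, n = 2), MNF_ciEPC (3.67 ± 1.74, n = 2), MEF_ciEPC (2.02 ± 0.0955, n = 2 series) and MEF (0.357 ± 0.618, n = 3). Of these neighbours, MNF_ciEPC and MEF_ciEPC did not differ beyond their spread (1.80-fold, edgeR quasi-likelihood test, Benjamini-Hochberg adjusted p = 0.402). Each of the other pairs differed, with adjusted p from 4.16e-07 for pHep against MEF_ciHep to 0.0195 for MEF_ciEPC against MEF. For Alb the order was pHep (12969 ± 2589), MEF_ciHep (1754 ± 689), MEF_ciEPC (1.09 ± 1.01), MNF_ciHep (0.280 ± 0.396) and MEF (0.270 ± 0.468), and only the steps from pHep to MEF_ciHep (adjusted p = 0.000245) and from MEF_ciHep to MEF_ciEPC (adjusted p = 7.68e-07) passed the test. The places of MNF_ciHep and MEF, with 1 and 4 counts of Alb, changed when MNF_ciHep library 2, MEF library 1 or MEF library 3 was left out.

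For Afp the order was MEF_ciHep (4514 ± 2634), pHep (377.8 ± 83.5), MNF_ciEPC (22 ± 5.57), MNF_ciHep (4.34 ± 4.02), MEF_ciEPC (1.99 ± 1.84) and MEF (0.0667 ± 0.115). MNF_ciHep and MEF_ciEPC did not differ beyond their spread (1.90-fold, adjusted p = 0.538) and changed places without MNF_ciHep library 2, and the step from MEF_ciEPC to MEF did not pass the test (adjusted p = 0.0753). The other steps passed, the one from pHep to MNF_ciEPC at 24.2-fold (adjusted p = 0.000245), where 18.6% of genes were called higher in pHep. For Afm the order was MEF_ciHep (61.7 ± 15.3), pHep (12.8 ± 1.66) and 7 groups at 0. The groups were cell populations and not successive samples of 1 culture, so the orders describe levels and not timing.

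The fibroblast to progenitor step brought low levels of Afp and Gc. From MNF to MNF_ciEPC, Afp rose at least 57.7-fold (218 counts against 0, adjusted p = 0.000543) and Gc at least 6.62-fold (25 counts against 0, adjusted p = 0.00244). Both bounds set the group without counts to 3 counts. Genes 2-fold apart or more at an adjusted p below 0.05 were called, and 18.4% of the 16061 genes tested were called higher in this comparison (23.5% with scaling to total counts alone, which moved the median of all genes from 0 to 0.17). Alb and Afm had no count on either side. From MEF to MEF_ciEPC, Gc was called higher at a ratio of 13.2 (95% counting interval 2.19 to 537; 31 counts against 1), where 17.6% of genes were called higher (23.5% with total counts alone, median 0.40 in place of 0.12). That call was lost without MEF library 1 (adjusted p = 0.0565), without MEF library 3 (0.0639) and without series 1 (0.0722), within a range of 0.00627 to 0.0722 over 16 alternatives. Afp had a ratio of 20.8 (3.56 to 839; 49 counts against 1, adjusted p = 0.0753), with a range of 0.00232 to 0.402 over 16 alternatives, 7 of which called it, and Alb a fold of 1.90 (adjusted p = 0.512). These comparisons rest on few reads, and in bulk RNA a few cells at a high level cannot be told apart from many cells at a low level.

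The progenitors of the 2 fibroblast sources differed in Afp. Its level was 10.4-fold lower in MEF_ciEPC than in MNF_ciEPC (log2 -3.38 ± 0.77 SE, adjusted p = 0.0265), where 0.971% of genes were called lower. The libraries did not overlap, but the call was lost without either MNF_ciEPC library (adjusted p = 0.135 and 0.113), without series 2 (0.134) and with passages up to 5 (0.0561), over a range of 0.000933 to 0.135 in 16 alternatives. ESC_EPC, the progenitors from stem cells, had no count of any member. Against them Afp in MNF_ciEPC was at least 55.9-fold higher (adjusted p = 0.000771) and Gc at least 6.41-fold higher (adjusted p = 0.00319), where 16.1% of genes were called lower in ESC_EPC. Against MEF_ciEPC, Gc was lower in ESC_EPC by at least 3.58-fold (adjusted p = 0.0128), where 16.8% of genes were called lower. That call was lost without either ESC_EPC library (adjusted p = 0.0647 and 0.0557), within a range of 0.00185 to 0.0647 over 15 alternatives.

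Over the passages of MEF_ciEPC the members stayed low and uneven. In series 1, Afp went from 1.21 TPM at passage 2 to 6.46 TPM at passage 3 and 1.61 TPM at passage 22. In series 2 it went from 1.59 TPM at passage 1 to 0.470 TPM at passage 10 and 0 TPM at passage 22, the library that stood apart. Gc was at 6.43 TPM at passage 3 and 4.17 TPM at passage 10 of series 1, and at 2.80 TPM at passage 1 and 3.88 TPM at passage 5 of series 2. The highest Alb value of all progenitors, 8.45 TPM from 9 counts, was that of series 1 at passage 22, where the shorter Alb length raised the TPM per count. None of the members passed the low-count filter of the trend fit over the 9 libraries left without the one that stood apart, in which 0.0937% of 11738 genes were called. With no such filter the change per doubling of passage was -0.22 ± 0.30 (SE, log2) for Afp, 0.44 ± 0.38 for Alb and -0.17 ± 0.45 for Gc, with adjusted p of 0.80, 0.67 and 0.92 by edgeR's quasi-likelihood test. Without that library the mean of the 2 series was 2.25 TPM for Gc, 1.15 TPM for Alb and 2.11 TPM for Afp.

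**Figure D2:**
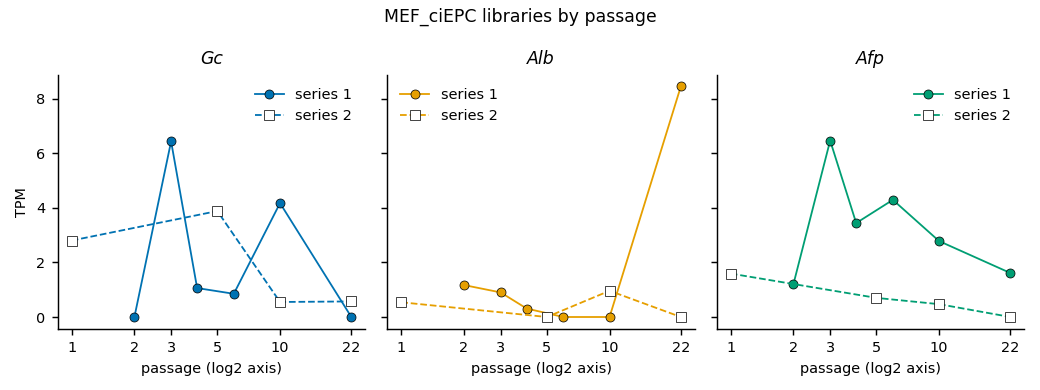
TPM of Gc, Alb and Afp (vertical axis) in the 10 MEF_ciEPC libraries by passage (horizontal axis, log2 scale); filled circles are series 1 and open squares series 2. The values stay at or under 6.46 TPM except for Alb at passage 22 of series 1, at 8.45 TPM.

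From MEF_ciEPC to MEF_ciHep all 4 members rose, in a comparison where 17.8% of genes were called higher (14.9% with total counts alone, median -0.31 in place of -0.07). Alb rose 2703-fold (log2 11.40 ± 0.76 SE, adjusted p = 7.68e-07), Afp 2891-fold (11.50 ± 0.98, adjusted p = 2.16e-06) and Gc 48.4-fold (5.59 ± 0.43, adjusted p = 1.1e-06). Afm rose at least 651-fold (796 counts against 0, adjusted p = 7.07e-06). No library of the 2 groups overlapped for any member, and the share of all genes without overlap is not given. The fitted changes of the fetal and the adult carrier lay within each other's SE, and whether the change of Gc was smaller was not tested.

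From MNF_ciEPC to MNF_ciHep the family moved otherwise. Gc rose 5.13-fold (log2 2.36 ± 0.50 SE, adjusted p = 0.0027), where 19.5% of genes were called higher. Of 16 alternatives, limma on log2(TPM + 0.1) did not call Gc (adjusted p = 0.0891; range 2.03e-05 to 0.0891). Afp fell 5.50-fold (log2 -2.46 ± 0.91, adjusted p = 0.0476), where 10.8% of genes were called lower. The fall of Afp did not hold under 9 of 16 alternatives: it was lost without MNF_ciEPC library 1 (adjusted p = 0.133), without MNF_ciEPC library 2 (0.0715) and without MNF_ciHep library 1 (0.311), and with the replicate block (0.0551), over a range of 0.00751 to 0.311. Alb, with 1 count, and Afm, with none, had no value. Against the starting MNF fibroblasts, Gc was at least 32.5-fold higher in MNF_ciHep (adjusted p = 9.03e-05) and Afp at least 9.57-fold higher (adjusted p = 0.0438), where 16.2% of genes were called higher (19.5% with total counts alone, median 0.27 in place of 0.04). The Afp call was lost without either MNF library (adjusted p = 0.125 and 0.122) and without MNF_ciHep library 2 (0.295), over a range of 0.000415 to 0.295.

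The difference between the 2 origins was itself tested. The change from progenitor to hepatocyte-like cell was larger in the MEF route by 13.96 ± 1.24 (log2, SE) for Afp (adjusted p = 7.92e-06) and by 3.24 ± 0.68 for Gc (adjusted p = 0.00302), where 12% of genes were called in that direction. With limma on log2(TPM + 0.1) the difference for Gc was 2.83 and was not called (adjusted p = 0.097; range 2.17e-05 to 0.097 over 21 alternatives). For Alb and Afm this difference had no finite value, since MNF_ciEPC had no count of either. Set side by side, the hepatocyte-like cells differed in all 4 members, with 16.1% of genes called higher in MEF_ciHep. Gc was 5.24-fold higher in MEF_ciHep (adjusted p = 0.00029, and 0.0566 by limma on log2(TPM + 0.1), in a range of 9.01e-08 to 0.0566) and Afp 1524-fold higher (adjusted p = 4.56e-06). Afm was at least 122-fold higher (adjusted p = 2.56e-05), and Alb had a ratio of 9851 (95% counting interval 1768 to 389122, adjusted p = 1.2e-06).

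Some lists of cell markers also differed between MEF_ciHep and MNF_ciHep, and others overlapped. The parietal endoderm sum was 3686.5 to 7373 in MEF_ciHep and 4015 to 10459 in MNF_ciHep. That of the pluripotency markers was 250.5 to 448.5 and 300.1 to 900.8. A list of 6 cholangiocyte (bile duct cell) markers summed to 2904 to 4300 in MEF_ciHep and 2098 to 2779 in MNF_ciHep. The summed TPM of 8 fibroblast markers was 1667 to 3874 in MNF_ciHep, with all 8 detected in both libraries, against 10.8 to 17.3 in MEF_ciHep. The sum of 10 hepatocyte markers was 32.2 to 47.9 in MNF_ciHep and 792.4 to 1081 in MEF_ciHep, and G6pc, Cps1, Serpina1a and Cyp3a11 (enzymes and a secreted protein of mature hepatocytes) were at 0 in MNF_ciHep. Of the same list Tdo2, an enzyme of tryptophan breakdown, went the other way, at 3.06 and 1.41 TPM in MNF_ciHep and 0, 0.09 and 0.82 TPM in MEF_ciHep, and Pck1 values overlapped. A list of 14 visceral endoderm markers, a tissue that also makes Afp, summed to 11382 to 25742 in MEF_ciHep, 508.5 to 1095 in MNF_ciHep and 4265 to 13303 in pHep, with Cer1 at 0 in MEF_ciHep and pHep. Apoa1 carried most of that sum in MEF_ciHep (8883 to 22586 TPM), and without it the other 13 summed to 2499 to 3510, 499.5 to 1004 and 2857 to 5773, so that MEF_ciHep and pHep overlapped. That list shares Ttr with the hepatocyte list and Hnf4a, Lrp2, Cubn and Amn with the lists of regulators and carrier partners. A list of 10 hepatoblast markers summed to 9567 to 14888 in MEF_ciHep, 4454 to 4533 in MNF_ciHep and 10214 to 14483 in pHep. MEF_ciHep and pHep thus overlapped in it, and MEF fibroblasts also had 3627 to 7909. A list of 5 gut markers summed to 509.4 to 754.5 in MEF_ciHep and at most 29.9 in MNF_ciHep and pHep. The part of these cells in the family's levels was not tested.

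**Figure D3:**
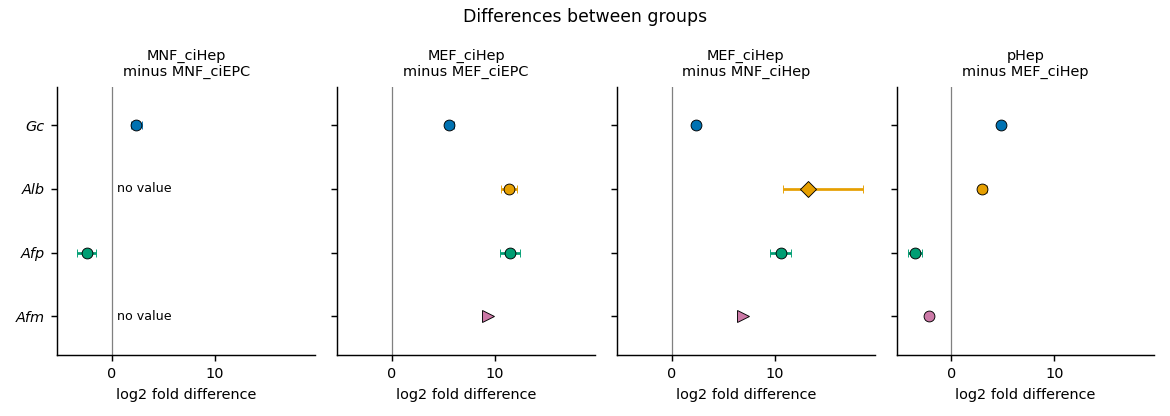
Log2 fold difference (horizontal axis) of each member (vertical axis) in 4 comparisons; circles are fitted values with SE, triangles lower bounds against 3 counts, and the diamond a ratio against 1 count with its 95% counting interval. All 4 members lie to the right in the MEF route, and the hepatocytes lie above MEF_ciHep for Gc and Alb and below it for Afp and Afm.

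Primary hepatocytes and MEF_ciHep differed in all 4 members, in opposite directions. In hepatocytes Gc was 28.5-fold higher (log2 4.83 ± 0.32 SE, adjusted p = 4.16e-07) and Alb 8.04-fold higher (3.01 ± 0.44, adjusted p = 0.000245), where 10.8% of genes were called higher. Afp was 11.4-fold lower (-3.52 ± 0.66, adjusted p = 0.00125) and Afm 4.58-fold lower (-2.19 ± 0.36, adjusted p = 0.00244), where 15.1% were called lower. Against MNF_ciHep all 4 were higher in hepatocytes, with 13.4% of genes called higher: Gc 149-fold (adjusted p = 3.23e-07), Afp 133-fold (adjusted p = 7.62e-05), Afm at least 25.0-fold (adjusted p = 0.000242) and Alb at a ratio of 78834 (14149 to 3113835, adjusted p = 5.56e-07). The 2 sets of hepatocyte-like cells share the pHep libraries as their reference.

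The make-up of the family's transcripts differed accordingly. The 4 genes summed to 16466 and 14192 TPM in pHep, and Alb made up 89.9% and 78.5% of that, Gc 8.11% and 18.3%, and Afp 1.94% and 3.08%. In MEF_ciHep they summed to 6921, 3470 and 8801 TPM, and Afp made up 83.8%, 42.8% and 71.1%. MEF_ciHep library 2 differed from the others in that Alb (52.4%) was above Afp. In MNF_ciHep, at 14.2 and 25.4 TPM in all, Gc made up 89.4% and 69.5%, and in MNF_ciEPC, at 30.9 and 20.5 TPM, Afp made up 84.1% and 88.1%. Afp therefore held the largest share in MNF_ciEPC and in 2 of 3 MEF_ciHep libraries, Gc in MNF_ciHep and Alb in pHep.

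**Figure D4:**
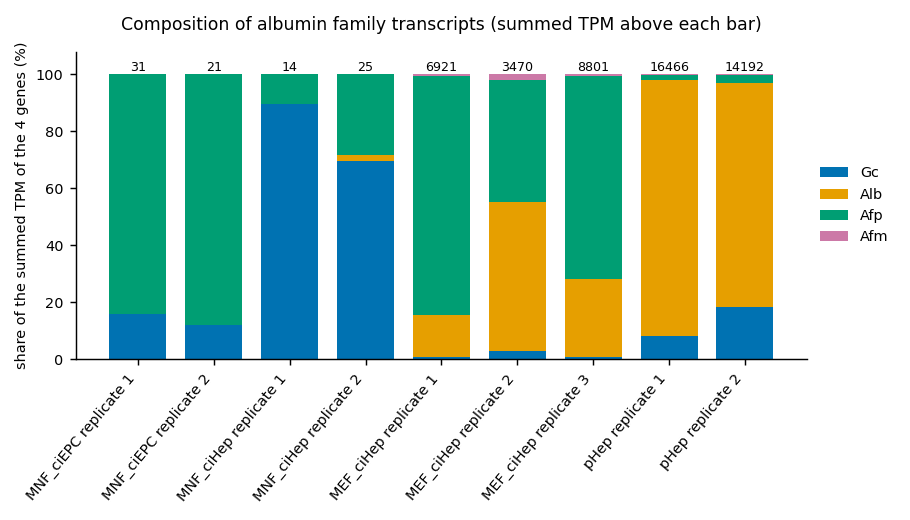
Share of the summed TPM of the 4 genes (percent, vertical axis) that each gene held in the libraries of MNF_ciEPC, MNF_ciHep, MEF_ciHep and pHep (horizontal axis), with the summed TPM printed above each bar. Alb fills most of the bar in pHep, Afp in MNF_ciEPC and in MEF_ciHep replicates 1 and 3, and Gc in MNF_ciHep.

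Where both genes are well above 1 TPM, the ratio of Afp to Alb within a library depends little on the scaling between libraries. As log2 of (Afp + 1) over (Alb + 1) in TPM, it was 2.49, -0.29 and 1.38 in MEF_ciHep, 1.32 and 2.39 in MNF_ciHep and -5.53 and -4.67 in pHep. Every hepatocyte-like library lay above both hepatocyte libraries. The 5 of them exceeded pHep by 6.56 on average (exact two-sided permutation test, p = 0.0952, the smallest these numbers allow; 0.343 adjusted over 12 comparisons). MEF_ciHep exceeded pHep by 6.29 (exact permutation p = 0.2, also the smallest possible). The Gc to Alb ratio was 3.77 and 3.58 in MNF_ciHep, -4.72, -4.24 and -5.07 in MEF_ciHep and -3.47 and -2.10 in pHep, so the groups did not overlap (exact permutation p of 0.2 for each set against MEF_ciHep, the smallest possible). The Afm to Alb ratio was -4.51, -4.60 and -5.16 in MEF_ciHep and -10.20 and -9.54 in pHep (exact permutation p = 0.2). The MNF_ciHep ratios, which also enter the mean of the 5 libraries, rest on 0 or 1 count of Alb and move with the pseudocount.

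The 22 transcription factors counted here as regulators of the family, all of which were tested, changed in both directions. From MEF_ciEPC to MEF_ciHep 9 rose and 1 fell, with a median log2 change of 0.76 against -0.07 over all genes, and from 17.8% of all genes called higher and 14.8% lower. Hnf4a, a nuclear receptor that drives hepatocyte genes, went from 23.8 ± 16.7 TPM (SD, n = 2) to 99.5 ± 30.1 TPM (n = 3; log2 2.22 ± 0.42 SE, adjusted p = 0.000955). Foxa3, a forkhead factor of endoderm, went from 17.0 ± 9.68 to 30.3 ± 8.95 TPM (1.2 ± 0.41, adjusted p = 0.0294). Dbp, a clock-controlled factor named for its binding to a site of the Alb promoter, went from 9.0 ± 0.762 to 31.9 ± 8.40 TPM (2.19 ± 0.32, adjusted p = 5.64e-05). Cebpa (C/EBP alpha) went from 2.81 ± 1.42 to 21.1 ± 5.49 TPM (3.13 ± 0.55, adjusted p = 0.000295). The gene that fell, named after its values were seen, was Nr2f1, an orphan nuclear receptor, from 3.39 ± 0.415 TPM to 0 (adjusted p = 0.00178).

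Along the MNF route the same list gave 11 rises and 2 falls, with a median of 1.45 against 0.05 over all genes, of which 19.5% were called higher and 10.8% lower. Cebpb (C/EBP beta) rose to 237.7 ± 49.4 TPM (log2 3.73 ± 0.46 SE, adjusted p = 2.2e-05), and Nr2f2 (the orphan receptor COUP-TFII) to 108.2 ± 58.1 TPM (5.99 ± 0.53, adjusted p = 1.53e-06). Dbp rose as in the MEF route, to 38.5 ± 9.64 TPM (2.88 ± 0.37, adjusted p = 2.94e-05), and Nr2f1 rose to 29.8 ± 24.4 TPM (5.11 ± 0.71, adjusted p = 0.000106). The fibroblast marker sum went from 15.4 to 41.0 TPM in MNF_ciEPC to 1667 to 3874 TPM in MNF_ciHep in this step, and in MNF fibroblasts Cebpb stood at 162.9, Dbp at 41.8, Nr2f2 at 24.5 and Nr2f1 at 17.2 TPM. The part of fibroblasts in these rises was not tested. The 2 that fell were Hnf4a and Foxa3, named here after their values were seen, at 3.6 and 1.0 TPM in MNF_ciHep (adjusted p = 0.0022 and 0.000282).

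Zbtb20 and Zhx2, known repressors of Afp in the liver after birth and singled out after their values were seen, were at 2.28 ± 0.966 and 5.10 ± 3.80 TPM in MEF_ciHep and at 13.46 ± 3.49 and 10.8 ± 2.03 TPM in pHep. Both were called higher in pHep (log2 3.11 ± 0.34 SE, adjusted p = 5.04e-06, and 2.05 ± 0.36, adjusted p = 0.000344). Zbtb20 also rose from MEF_ciEPC to MEF_ciHep (2.06 ± 0.38, adjusted p = 0.000395), where Afp rose too. In MNF_ciHep Zbtb20 and Zhx2 stood at 3.59 ± 0.608 and 8.095 ± 1.18 TPM. Zhx2 was called lower in MEF_ciHep than in MNF_ciHep (-1.19 ± 0.37, adjusted p = 0.0151), and Zbtb20 was not called (-0.45 ± 0.36, adjusted p = 0.323). The part of such repressors in the Afp levels was not tested. In pHep against MEF_ciHep the whole list gave 13 higher and 1 lower, with a median of 1.64 against -0.01 over all genes, of which 10.8% were called higher and 15.1% lower. Hnf4a led with 262.3 ± 27.9 TPM (1.76 ± 0.38, adjusted p = 0.00333). Trp53 (p53, a known repressor of Afp), Cebpb and Nfic (nuclear factor I/C) followed at 117.9 ± 4.35, 90.4 ± 59.3 and 48.9 ± 6.86 TPM. The gene called lower, named after its values were seen, was Dbp, at 1.12 ± 0.198 TPM in pHep (-5.59 ± 0.55, adjusted p = 2.04e-06). In MEF_ciHep against MNF_ciHep 4 were higher and 8 lower (16.1% and 17.8% of all genes). Of these Cebpb and Nr2f2 were lower (adjusted p = 5.19e-05 and 3.46e-05), Hnf4a was higher (adjusted p = 3.5e-05), and Nr2f1 was at 0 in MEF_ciHep and at 29.8 ± 24.4 TPM in MNF_ciHep.

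**Figure D5:**
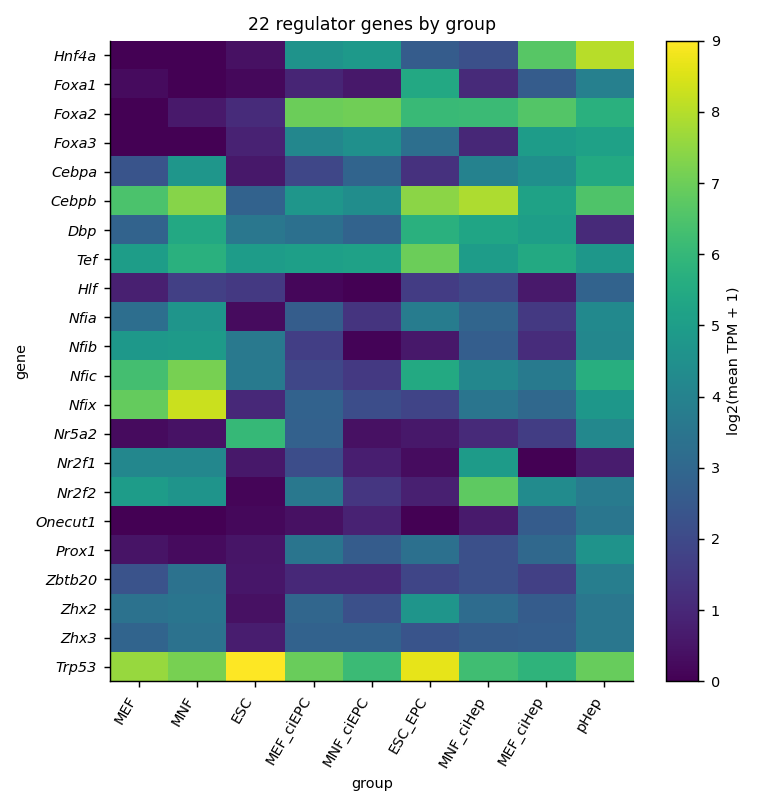
Mean level of the 22 regulator genes (vertical axis) in the 9 groups (horizontal axis), as log2(mean TPM + 1) on the color scale. Hnf4a and Foxa3 are at higher levels in MEF_ciHep and pHep than in MNF_ciHep, and Nr2f2 and Cebpb at higher levels in MNF_ciHep.

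Of 14 genes that handle the carriers or their cargo, 2 rose and 3 fell from MEF_ciEPC to MEF_ciHep, with a median of 0.31 against -0.07 over all genes. These counts lie near the 17.8% and 14.8% of all genes called higher and lower. The falls were Sparc (a matrix protein that binds albumin) from 5837 to 1781 TPM (log2 -1.45 ± 0.47 SE, adjusted p = 0.0194), Lrp2 (megalin, the receptor that takes up Gc with its vitamin D) from 79.3 to 18.8 TPM (-1.83 ± 0.51, adjusted p = 0.00795) and Amn, a partner of the receptor cubilin, from 118.2 to 5.79 TPM (-4.22 ± 0.59, adjusted p = 3.58e-05). Fcgrt, whose product rescues albumin from breakdown, rose from 2.95 to 6.88 TPM (1.39 ± 0.54, adjusted p = 0.0453). Along the MNF route 2 rose and 4 fell, with a median of 0.19 against 0.05 over all genes, of which 19.5% were called higher and 10.8% lower. Lrp2 fell from 157.3 to 25.9 TPM (-2.46 ± 0.59, adjusted p = 0.00402), Cubn, the cubilin gene, from 139.3 to 38.8 TPM (-1.68 ± 0.42, adjusted p = 0.00538) and Cyp27a1, a sterol and vitamin D hydroxylase, from 129.2 to 36.8 TPM (-1.38 ± 0.39, adjusted p = 0.0109). Fcgrt went from 0.1 to 59.3 TPM (8.93 ± 0.82, adjusted p = 1.96e-06) in cells with a single count of Alb, and stood at 166.6 TPM in MNF fibroblasts.

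In pHep against MEF_ciHep 3 partners were higher and 6 lower, with a median of -0.54 against -0.01 over all genes, of which 10.8% were called higher and 15.1% lower. B2m, the light chain that pairs with the Fcgrt product, stood at 2119 TPM in pHep and 845.4 TPM in MEF_ciHep (1.41 ± 0.22, adjusted p = 0.000129), and Sparc at 71.7 and 1781 TPM (-4.68 ± 0.60, adjusted p = 2.52e-05). Cubn stood at 102.6 TPM in MEF_ciHep and 1.29 TPM in pHep (-6.25 ± 0.55, adjusted p = 7.24e-07), and Dab2, an adaptor of the same uptake system, at 320.8 and 15.7 TPM (-4.92 ± 0.70, adjusted p = 6.26e-05).

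The genes around the family were counted in the same way. Within 500 kb of a member lie 22 other genes of the tables, of which 10 passed the low-count filter. The nearest, Gm43449 at 3.0 kb, was not among those tested. From MEF_ciEPC to MEF_ciHep, where all 4 members rose, 2 neighbours rose and none fell, with a median of -0.03 against -0.07 over all genes. That share is near the 17.8% of all genes called higher. The 2 were Rassf6, at 13.1 TPM, and Cxcl3, at 0.310 TPM in MEF_ciHep. Ankrd17, chosen after its values were seen, lies 94.3 kb from the start of Alb and stood at 98.9 TPM in MEF_ciEPC and 79.4 TPM in MEF_ciHep. From MNF_ciEPC to MNF_ciHep 7 of the 10 rose, with a median of 6.45 against 0.05 over all genes, of which 19.5% were called higher. Among the 7 were the chemokine genes Cxcl1, Cxcl5, Cxcl3 and Cxcl2, which lie 240.4 to 384.9 kb beyond the start of Afm and stood at 372.0, 127.5, 44.1 and 34.8 TPM in MNF_ciHep. In MEF_ciHep the same 4 stood at 2.92, 0.517, 0.310 and 0 TPM, and in MNF fibroblasts at 10.3, 38.0, 0.215 and 0 TPM. These chemokine genes lie together, so the share and the median of the neighbours rest in large part on 1 cluster. Of the 10, 7 were lower in MEF_ciHep than in MNF_ciHep and none higher (17.8% and 16.1% of all genes), while the 4 members were higher in MEF_ciHep. Cxcl1 was at 246.2 TPM in pHep, where the macrophage marker sum was 109.3 to 167.0 TPM against 54.0 to 137.3 TPM in MNF_ciHep and 37.0 to 105.7 TPM in MEF_ciHep. The part of macrophages or of fibroblasts was not tested.

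Across the 20 samples the members' own log2(TPM + 1) values correlated with Pearson's r from 0.763 (Gc with Afm) to 0.941 (Afp with Afm), with the highest values in MEF_ciHep and pHep. Among 13987 genes that reached 10 TPM, the genes most alike in pattern differed between members. For Alb they were Serpina1a (r = 0.993), Cldn2, Serpina1b, Gm15889 and Cyp2d10, which like Alb were at or under 0.675 TPM in MNF_ciHep. Serpina1a and Serpina1b are near-identical copies whose reads may be split. For Gc they were Itih4 (r = 0.968), Ahsg, Hamp, Cdh17 and Itih3, of which Ahsg had 63.8 TPM in MEF_ciHep and 2119 TPM in pHep. For Afp they were Mlph (r = 0.979), Apoa1, BC025446, 2810459M11Rik and Mpzl3. Apoa1, the main protein of high-density lipoprotein, stood at 16835 TPM in MEF_ciHep, above its 4469 TPM in pHep, as Afp did. For Afm they were Fabp2 (r = 0.987), Oas3, Cyp3a13, Ces2c and Spp2, and Fabp2, a fatty acid carrier of gut epithelium that is also in the gut marker list, stood at 28.4 TPM in MEF_ciHep and 6.17 TPM in pHep.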

How the data were processed

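RNA was sequenced in 28 libraries of 9 groups. The labels' protocols name Trizol for RNA and an Illumina TruSeq kit for the libraries. The deposited tables give RSEM expected counts, which the authors estimated per gene with RSEM 1.2.4 on mm10, per the submitters' processing notes. The deposited TPM values are scaled by length and to the same total in each library. The deposited FPKM values were not used, and the deposited effective lengths served only to derive read or fragment length. The aligner and the annotation are not given in the sources used here. The per-sample tables hold 32406 genes, and those outside the series table hold 0.114 to 0.606% of a library's counts.

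Expected counts were rounded and fitted with edgeR 4.0.16 (R 4.3.3; TMM scaling, minimum count 10, quasi-likelihood test) in 1 fit of 20 samples, in which the MEF_ciEPC libraries of a series were summed. P-values were Benjamini-Hochberg adjusted over 16061 genes, and a gene was called at an adjusted p under 0.05 and 2-fold. SE is the fitted log2 change over the root of its F statistic. A group without counts was set to 3 counts over the group, and 1 to 3 counts gave a ratio with an exact 95% Clopper-Pearson interval. Both cover counting error only. Ratios were tested by exact permutation (SciPy 1.17.1, pseudocount 1 TPM). The passage trend used log2 passage and series in 9 libraries. Members and gene lists were chosen with earlier results of these data known, and 2 listed regulators are not reported here. Named from each list were at most 4 called genes, those with the highest mean TPM in the higher group, and others are said to be named after their values were seen. The fit was tested on simulated counts. The alternatives were RLE or total-count scaling, no filter or a minimum count of 50, a replicate block, separate MEF_ciEPC libraries or those up to passage 5, leaving out the library that stood apart, only the compared groups, limma 3.58.1 on log2(TPM + 1) or (TPM + 0.1), DESeq2 1.42.0, other pseudocounts and leaving out each replicate.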

Additional observations from a re-analysis of the deposited data

Results flagged for a closer look

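The Alb level of MEF_ciEPC series 1 at passage 22 was 8.45 TPM, and its gap to the nearest of the other 9 libraries was 0.862 of the whole range. Alb was 1 of 3 values of that group with enough libraries for this check. The limit is meant to be passed by about 1 in 20 groups by chance. That rate may not hold for values that rest on so few counts. It rests on 9 counts and on an Alb length of 911.6 bases, against 2034 bases in the 12 other libraries with a count. As a share of counts, which uses no length, the library was still the highest, at 0.000351% against 0.000113% for the next, and the gap was 0.677 of the range. In the same library Afp (1.61 TPM) and Gc (0 TPM) were not high.

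The change from ciEPC to ciHep differed between the MEF and the MNF origin for Afp, by 13.96 ± 1.24 (log2, SE), and for Gc, by 3.24 ± 0.68. Both passed the test of the difference itself (edgeR, adjusted p = 7.92e-06 and 0.00302). Afp rose in the MEF route and had a lower level after the step in the MNF route, and Gc rose in both.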

How the results depend on the processing

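Of the summary results, 290 alternatives left the main value in place, 47 moved it and 2 reversed it. For single genes, 607 left direction and call in place, 17 added a call, 24 removed it and 1 reversed a change that was not called. It was that of Alb, MEF_ciEPC minus MEF, at 0.93 (log2), which ran from -0.075 without series 1 to 4.796 without MEF library 2, where MEF has no count left. The order of levels over groups with a count held with group medians, TMM-scaled CPM and without the library that stood apart. Without single replicates, an alternative added after seeing the data, 0 to 2 places changed for Alb (2 without MNF_ciHep library 2, MEF library 1 or MEF library 3) and for Afp (2 without MNF_ciHep library 2), and 0 for Gc and Afm. Calls over all genes moved with the setting too, so moves of the member counts are not particular to the members. In MEF_ciEPC minus MEF, 2825 genes were called higher, 3768 with total-count scaling and 2362 with only the compared groups. For the difference between origins 1926 were called higher, and 1613 with limma on log2(TPM + 0.1). The counts of called members moved as follows. For MEF_ciEPC minus MEF, 1 member was called in the main analysis, 2 with total-count scaling, no low-count filter, passages up to 5, the 10 libraries apart, limma on log2(TPM + 0.1) or DESeq2, 0 with only the compared groups, and 0 to 2 without single replicates. For MNF_ciHep minus MNF_ciEPC, 2 were called, and 1 with RLE scaling, a minimum count of 50, the replicate block, the 10 libraries apart, limma on log2(TPM + 0.1), DESeq2 or only the compared groups (1 to 2 without single replicates). For MNF_ciHep minus MNF, 2 were called, and 1 with only the compared groups (1 to 2 without single replicates). For MEF_ciEPC minus MNF_ciEPC, 1 was called, and 0 with passages up to 5 (0 to 1 without single replicates). For ESC_EPC minus MEF_ciEPC, 1 was called, 3 with no filter, limma on log2(TPM + 0.1) or DESeq2, 2 without the library that stood apart, with passages up to 5 or with the 10 libraries apart, 0 with only the compared groups, and 0 to 2 without single replicates. For the difference between origins, 2 were called, and 1 with limma on log2(TPM + 0.1). Over all genes, MNF_ciHep minus MNF_ciEPC had 1739 called lower, 1053 with the 10 libraries apart and 2111 by limma on log2(TPM + 0.1). MNF_ciHep minus MNF had 2599 higher, and 2256 with only the compared groups. MEF_ciEPC minus MNF_ciEPC had 156 lower, and 75 with passages up to 5. ESC_EPC minus MEF_ciEPC had 2698 lower, 3115 with no filter and 2275 with the 10 libraries apart. With only the compared groups, 0 members passed the low-count filter in MEF_ciEPC minus MEF and in ESC_EPC minus MEF_ciEPC, and 1 passed in MNF_ciHep minus MNF. For the others the cause was not tested. The log2 Afp to Alb ratio of MEF_ciHep minus MNF_ciHep was -0.67, with -2.54 and 0.73 at pseudocounts of 0.1 and 10 TPM, and from -1.31 to 0.075 without single replicates, the highest without MEF_ciHep library 2. That of MNF_ciHep minus pHep was 6.96, and 8.84 and 5.52 with those pseudocounts.

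Same-numbered samples of different groups showed little likeness: over 73 pairs the correlation of residuals ran from -0.163 to 0.085, with 0 above 0.1. In groups of 2 libraries the residuals mirror each other, so these pairs are not independent. The correlations cannot show that the samples are unpaired. With the replicate number as a block, the count of called members moved in 1 comparison, as given above. In groups without counts, depth allows no statement below 3 counts.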
